A study of Mus musculus with 74 samples.

Results

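The macrophage and complement genes are 10 genes taken by name from the 53379 genes counted in the L4 dorsal root ganglion (DRG) of the mouse. They are C1qa, C1qb, C1qc, C3, Csf1r, Aif1, Cd68, Cd163, Mrc1 and Adgre1, and all 10 were found in the deposited counts. They were followed in whole DRG, and in sorted sensory neurons they served as a check of what other cells had entered the wells. Whole DRG came from female wild type C57BL/6 mice of 10 to 12 weeks, 4 uninjured and 4 taken 1 day after spinal cord injury (SCI), with 1 library per mouse. The SCI was a dorsal hemisection at T9/10. Sorted cells came from female Thy1YFP16 mice of 10 to 20 weeks, 6 naive mice and 4 mice at each of 1 and 3 days after sciatic nerve crush injury (SNI) or SCI. The Thy1 promoter drives YFP in a subset of sensory neurons, and YFP+ cells were sorted into 3 wells of about 100 cells per mouse, which gave 66 wells from 22 mice. The wells of a mouse are technical replicates by the labels and were summed for every test but 1. The comparison of glia-rich wells, defined below, kept these wells apart from the other wells of the same mouse. The strain label is Thy1YFP16 in every sorted library, while the number in its genotype label differs from library to library.

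Resident macrophages of the DRG lie around the neuron bodies, between satellite glia and along vessels, and they depend on signalling through the receptor encoded by Csf1r. C1qa, C1qb and C1qc encode the 3 chains of C1q, which starts the classical complement cascade, and C3 is the protein on which all complement routes converge. Macrophages are a main source of C1q, whereas C3 can be made by many cell types. Aif1 encodes the cytoskeletal protein IBA1, Cd68 a lysosomal glycoprotein, Cd163 a scavenger receptor for haemoglobin bound to haptoglobin, Mrc1 the mannose receptor CD206, and Adgre1 the surface antigen F4/80.

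On GRCm38 the C1q genes sit side by side on the minus strand of chromosome 4, C1qb at 136880129 to 136886187, C1qc at 136889804 to 136893065 and C1qa at 136895917 to 136898803. C3 (57203970 to 57228136, minus strand), Aif1 (35170991 to 35176068, minus strand) and Adgre1 (57358691 to 57483527, plus strand) lie on chromosome 17. Cd68 is on chromosome 11 (69664213 to 69666153, minus strand), Cd163 on chromosome 6 (124304656 to 124330527, plus strand) and Mrc1 on chromosome 2 (14229392 to 14332057, plus strand). Promoter sequence from RefSeq (GRCm38.p6) was matched for 7 of the 10 genes. The 250 bases before the start are shown for C3 and Cd163, since these were the members that changed in whole DRG, each 5′ to 3′ on its own strand and with 1 motif match in capitals.
Cd163, chr6:124304401-124304650, plus strand: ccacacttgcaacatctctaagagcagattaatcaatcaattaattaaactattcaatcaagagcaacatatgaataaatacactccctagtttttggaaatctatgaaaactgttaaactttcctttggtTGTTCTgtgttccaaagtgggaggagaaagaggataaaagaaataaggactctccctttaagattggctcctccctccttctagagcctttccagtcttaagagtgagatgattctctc
C3, chr17:57228137-57228386, minus strand: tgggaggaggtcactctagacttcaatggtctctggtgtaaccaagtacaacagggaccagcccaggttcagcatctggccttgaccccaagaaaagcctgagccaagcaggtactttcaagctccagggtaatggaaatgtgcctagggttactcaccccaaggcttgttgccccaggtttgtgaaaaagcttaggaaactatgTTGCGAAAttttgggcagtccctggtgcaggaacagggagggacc
The capitals in Cd163 match TGTTCT, the letters of a glucocorticoid receptor half-site, from 119 bases before the start. Both strands were searched, and TGTTCT was found in 3 of the 7 member promoters (C1qb, C1qc and Cd163) and in 16.1% of 32851 mouse promoters of the same length. The capitals in C3 match TTGCNNAA, the letters of a C/EBP site, from 45 bases before the start. TTGCNNAA was found in 2 of the 7 (Cd68 and C3) and in 9.56% of all promoters. GAGGAA, the core letters bound by the macrophage factor PU.1, was found in 5 of the 7 (Mrc1, C1qb, C1qc, Cd68 and Aif1) and in 23.3% of all promoters. Short matches of this kind are a description of the letters and show no binding.

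Between 21959030 and 44493319 reads per library were counted on genes in whole DRG, and 30518187 to 83599972 per mouse in sorted cells. Levels are CPM, the reads of a gene scaled to the same total of reads on genes in every library. In whole DRG the 10 genes together made up 0.00713% to 0.0115% of reads, so the scarcest, Cd68 and Aif1, rested on 29 to 100 reads per library. Per kilobase of exon, C1qa was the most abundant member in uninjured DRG at 14.998 ± 1.86 CPM per kb (SD, n = 4), above C1qb at 8.86 ± 1.29 and C1qc at 5.80 ± 0.968, with no overlap between these neighbours. Mrc1 followed at 2.83 ± 0.426, Csf1r at 2.09 ± 0.445 and Adgre1 at 1.66 ± 0.311 CPM per kb. The lowest were Aif1 at 1.153 ± 0.252, Cd68 at 1.05 ± 0.165, Cd163 at 0.998 ± 0.167 and C3 at 0.865 ± 0.124 CPM per kb. From Mrc1 downwards each gene overlapped the next over the 4 libraries.

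Whether SCI, which injures the central branch of these neurons far from the DRG, is followed by a change in its macrophage and complement genes was asked by comparing whole DRG 1 day after SCI with uninjured DRG. C3 and Cd163 rose, and the other 8 members did not pass the test. With edgeR's quasi-likelihood F-test and Benjamini-Hochberg adjustment, 2 of the 10 members had an adjusted p under 0.1, both higher after SCI, against 1.38% of the 17616 genes tested that were called higher and 2.32% called in either direction. The median log2 fold change of the members was 0.34, against 0.01 over all genes tested. In bulk tissue, more cells of a type and more RNA per cell cannot be told apart.

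C3 was at 3.83, 4.79, 5.17 and 4.01 CPM in the 4 uninjured libraries and at 9.90, 8.29, 12.3 and 8.65 CPM after SCI. Every SCI library was above every uninjured library. How many of all genes tested were separated in this way was not counted, for C3 or for the members below. The log2 fold change was 1.12 ± 0.15 (SE; adjusted p = 0.00925, edgeR), with means of 4.45 ± 0.636 and 9.78 ± 1.81 CPM (SD, n = 4 each). Cd163 was at 5.28, 6.74, 4.61 and 5.15 CPM in uninjured DRG and at 10.4, 10.5, 9.16 and 11.4 CPM after SCI. The groups again did not overlap, and the log2 fold change was 0.90 ± 0.13 (SE; adjusted p = 0.0141, edgeR). With any 1 library left out both genes still passed, at adjusted p-values of up to 0.0405 for C3 and 0.0602 for Cd163 in edgeR.

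The C1q chains were higher on average without passing the test. C1qa was at 16.2, 17.8, 15.1 and 13.2 CPM in uninjured DRG and at 22.6, 21.0, 18.1 and 20.8 CPM after SCI, so that all SCI libraries lay above the uninjured ones. Its log2 fold change was 0.38 ± 0.11 (SE; adjusted p = 0.142, edgeR), and with DESeq2 it passed at an adjusted p of 0.0508. C1qb was at 8.61, 11.3, 10.3 and 8.38 CPM and after SCI at 15.2, 12.97, 10.5 and 13.3 CPM, with overlap (log2 fold change 0.41 ± 0.14, SE). C1qc was at 10.7, 13.2, 12.1 and 8.88 CPM and after SCI at 14.1, 13.3, 13.7 and 14.9 CPM, with no overlap between the groups (log2 fold change 0.30 ± 0.12, SE). Without SCI replicate 3, C1qa and C1qb also passed, at adjusted p-values of 0.077 and 0.0837 in edgeR, which made 4 members called. The 3 chains kept similar shares of C1q reads in all 8 libraries, C1qa 40.4% to 45.7%, C1qb 24.3% to 29.3% and C1qc 27.2% to 32.4%.

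**Figure D1:**
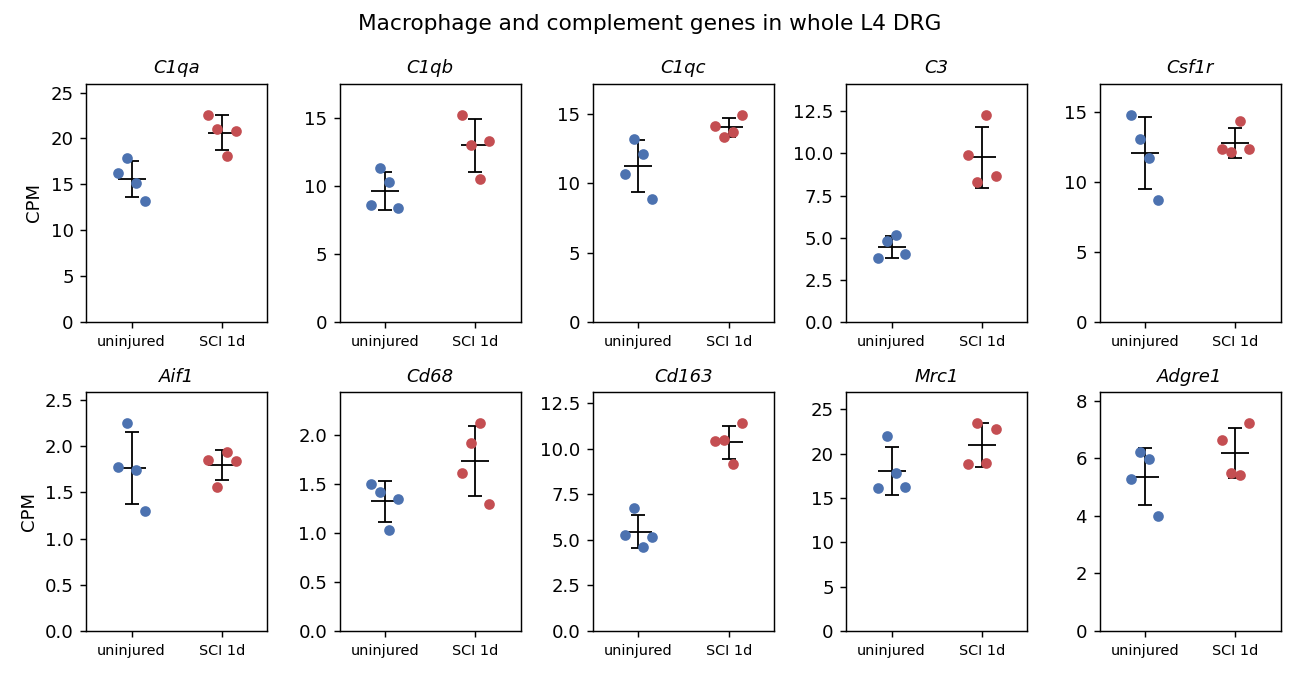
Level of each of the 10 genes in whole L4 DRG, in CPM (each axis from 0), for 4 uninjured mice (blue) and 4 mice 1 day after SCI (red). Points are libraries and bars are the mean ± SD. Only for C1qa, C1qc, C3 and Cd163 do all SCI points lie above all uninjured points. The share of all genes separated in this way was not counted, and C1qa and C1qc did not pass the test.

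None of the general macrophage markers passed the test. Csf1r, on the plus strand of chromosome 18 (61100598 to 61132149), was at 14.8, 13.1, 11.7 and 8.72 CPM in uninjured DRG and at 12.3, 12.2, 14.4 and 12.3 CPM after SCI. The SCI libraries lay inside the uninjured range, and the log2 fold change was 0.07 ± 0.15 (SE; adjusted p = 0.868, edgeR). Aif1 was at 1.30 to 2.25 CPM in uninjured DRG and 1.56 to 1.94 CPM after SCI, with a log2 fold change of 0.01 ± 0.18 (SE). Adgre1 was at 3.98 to 6.23 CPM and after SCI at 5.41 to 7.21 CPM, and Mrc1 at 16.2 to 21.96 and 18.8 to 23.4 CPM. Their log2 fold changes were 0.18 ± 0.16 and 0.20 ± 0.12 (SE). Cd68 was at 1.03 to 1.503 CPM and after SCI at 1.30 to 2.12 CPM, with a log2 fold change of 0.40 ± 0.19 (SE). Missing the threshold does not show that these genes were unchanged, since the standard errors leave room for differences of the size seen in the C1q chains.

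Set against Csf1r in the same library, Cd163 was at 0.357 to 0.591 reads per Csf1r read in uninjured DRG and at 0.638 to 0.924 after SCI. C3 was at 0.258 to 0.460 reads per Csf1r read and at 0.682 to 0.856 after SCI. Neither ratio overlapped between the groups. The ratios were chosen after the values were seen and are given as a description.

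Among 22 other complement genes 19 were tested, and 3 rose while none fell. C4b, the mouse C4 that C1s cleaves, was at 39.1 to 44.3 CPM in uninjured DRG and 53.3 to 69.3 CPM after SCI (log2 fold change 0.50 ± 0.09, SE; adjusted p = 0.0321, edgeR). Itgam, which encodes a chain of complement receptor 3, was at 0.443 to 0.844 and 1.25 to 1.92 CPM (log2 fold change 1.14 ± 0.23, SE). The median log2 fold change over the 19 was 0.35. The calls of C4b and Itgam depended on single libraries: C4b was lost without uninjured replicate 3 or 4, and Itgam without uninjured replicate 2 or 4 or SCI replicate 1 or 2. The adjusted p then reached 0.122 for C4b and 0.138 for Itgam in edgeR. None of the 7 genes on signalling to and transcription in macrophages passed the edgeR test, and none had an unadjusted p under 0.05. The 2 with the highest level among them were the CSF1 receptor ligands, Il34 at 27.0 ± 0.484 and 27.2 ± 1.55 CPM and Csf1 at 17.4 ± 1.85 and 17.9 ± 2.06 CPM (SD, n = 4 each).

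Of 29 other macrophage genes 27 were tested, and 4 rose while 1 fell. The risers were Mertk, a receptor for the uptake of dying cells (log2 fold change 0.89 ± 0.12, SE; 11.6 to 18.04 CPM in uninjured DRG and 26.5 to 29.9 CPM after SCI), the IgG receptors Fcgr3 (1.00 ± 0.21) and Fcgr2b (0.76 ± 0.17), and Lgals3, which encodes galectin 3 (0.70 ± 0.16). Cx3cr1, the fractalkine receptor, fell by 0.62 ± 0.15 on the log2 scale (SE; adjusted p = 0.0871, edgeR), from 5.10 to 6.74 CPM in uninjured DRG to 3.26 to 4.84 CPM after SCI. Except for Mertk these calls depended on single libraries, with adjusted p-values in edgeR of up to 0.146 for Fcgr3, 0.158 for Fcgr2b, 0.199 for Lgals3 and 0.237 for Cx3cr1 when 1 was left out. Fcgr3, Fcgr2b and Lgals3 were each lost without uninjured replicate 2, 3 or 4 or SCI replicate 1 or 2, Fcgr3 and Lgals3 also without SCI replicate 4, and Cx3cr1 was lost without any library other than SCI replicate 4. Of 6 monocyte genes, F13a1, the A subunit of coagulation factor XIII, rose by 1.08 ± 0.11 (log2, SE; adjusted p = 0.00164, edgeR), from 7.46 to 8.80 CPM to 15.5 to 20.4 CPM.

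**Figure D2:**
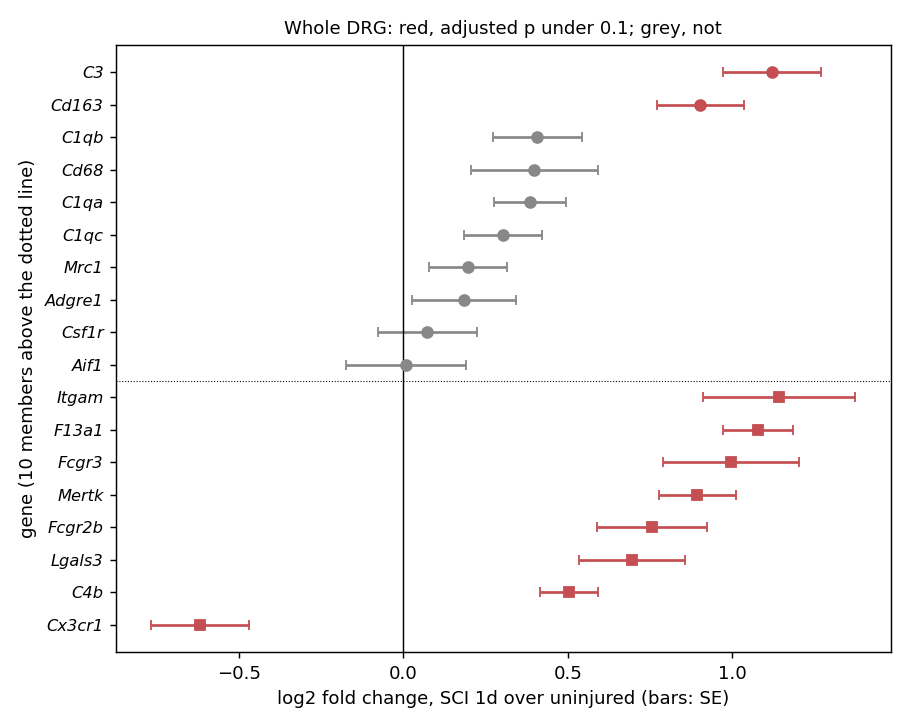
Log2 fold change in whole DRG, SCI 1 day over uninjured, with its standard error, for the 10 members (circles, above the dotted line) and for the genes of the other complement, macrophage and monocyte lists named as called in the text (squares). Red marks an adjusted p under 0.1 in edgeR and grey the rest; C3 at 1.12 and Cd163 at 0.90 are the 2 members in red.

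Markers of blood moved with the SCI group. The summed level of 6 red blood cell genes was 14.1 to 24.8 CPM in uninjured DRG and 22.2 to 97.7 CPM after SCI, and 4 of the 6 were called higher, among them the globin gene Hbb-bs (log2 fold change 1.84 ± 0.34, SE). None of the 4 was called without uninjured replicate 2, 3 or 4. Hbb-bt was also lost without any 1 of SCI replicates 1 to 3, and Hba-a1 and Hba-a2 without any 1 of these or uninjured replicate 1. The adjusted p in edgeR reached 0.125 for Hbb-bs, 0.196 for Hbb-bt, 0.211 for Hba-a1 and 0.232 for Hba-a2. The summed level of 11 neutrophil genes was 13.6 to 27.9 CPM and 9.95 to 54.7 CPM, and none of the 10 tested was called in edgeR, with 4 at an unadjusted p under 0.05. SCI replicate 4 had the lowest red blood cell and neutrophil sums of the SCI group, 22.2 and 9.95 CPM, both within or below the uninjured range, and in it C3 was at 8.65 CPM and Cd163 at 11.4 CPM, above every uninjured library. With the red blood cell level as a covariate, 11 genes of the whole table and none of the members or of the genes named from the other lists passed in edgeR. The log2 fold changes were then 0.98 for C3 (adjusted p = 0.344) and 1.01 for Cd163 (adjusted p = 0.27). The red blood cell sum went with the injury, with medians of 21.3 CPM in uninjured and 72.5 CPM in SCI libraries. Blood content and injury can therefore not be told apart here. Lymphocyte genes were near 0 in both groups, at a summed 1.07 to 2.37 and 2.11 to 3.77 CPM, and sums of the glial and neuronal lists overlapped between the groups.

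The genes whose log2 CPM most resembled the mean z-score of the 10 members over the 8 libraries were Ttc29 (Pearson r = 0.96), Yjefn3 (0.95), BE692007 (0.95), Afmid (0.94) and Dusp1 (0.93). On deviations from the group means they were 2610300M13Rik (0.96), Gsdma (0.94), Xpnpep2 (0.93), Ttc29 (0.93) and Kif15 (0.92). With 8 libraries and 17616 genes such values are a description. Among the members themselves, deviations from the group means correlated at 0.81 between C1qa and C1qb and at 0.93 between C1qc and Adgre1, and at -0.20 between C1qa and C3.

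In the sorted cells the 10 genes were a measure of purity. In 60 of the 66 wells they were nearly absent, with a median of 0.000237% and a maximum of 0.00254% of reads, below the lowest whole DRG library. The other 6 wells, from 5 of 22 mice, held 0.0204% to 0.318% of their reads on the 10 genes, more than any whole DRG library. These 6 wells contained 96.5% of all member reads in the sorted data. The 6 wells all belonged to the set labelled FACS2018, which had 30 wells, and none of the 36 wells of the set labelled FACS was among them. Each set held mice of every group.

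The 6 wells were also wells in which glial genes outweighed neuronal ones. Glia-rich wells were those with more reads on 9 glial genes than on 8 neuronal genes. There were 20 of them, 7 in the FACS set and 13 in the FACS2018 set, with 3.60% to 15.6% of reads on the glial genes, against 0.182% to 1.41% in the other 46 wells. They occurred in every group, 6 of 18 naive wells, 3 of 12 at SNI 1d, 4 of 12 at SNI 3d, 3 of 12 at SCI 1d and 4 of 12 at SCI 3d. The remaining 14 glia-rich wells held few member reads, at most 36 of any 1 gene.

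**Figure D3:**
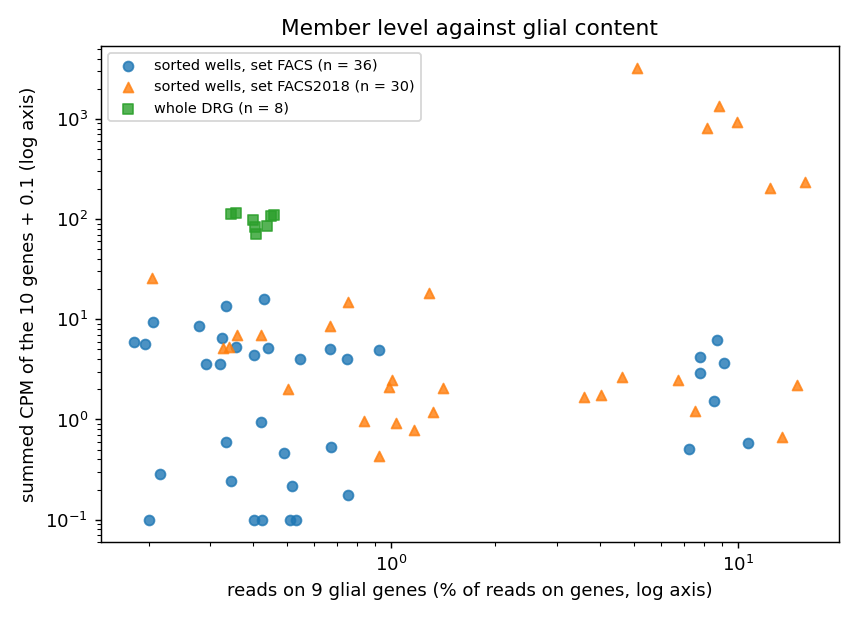
Summed level of the 10 genes (CPM + 0.1, log axis) against the share of reads on 9 glial genes (%, log axis), for wells of the 2 sets and for the 8 whole DRG libraries. The 6 wells above whole DRG are triangles of the FACS2018 set at the right, while the other 14 glia-rich wells lie as low as the neuron-rich wells.

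No 2 of the 6 wells held the same members. Well c of SCI 3d mouse 3 held reads of all 10, led by C1qb at 16734 reads and 1066 CPM, Cd68 at 9540 reads and 608 CPM, and Mrc1 at 6090 reads and 388 CPM. Well b of SNI 1d mouse 3 held C1qb at 12598 reads and Cd68 at 6678 reads but none of Mrc1 or Adgre1. Well b of naive mouse 6 held C1qb at 6197, Aif1 at 3392, Cd68 at 3174 and Csf1r at 2378 reads, with 6 of C1qa and none of Adgre1. Cd68 was present in all 6, at 444 reads or more.

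Well b of naive mouse 5 held 15093 reads of Adgre1, the highest of any well at 779 CPM, and none of C1qa or Csf1r. Well c of naive mouse 6 held Cd68 at 2675 and Aif1 at 1078 reads with none of Csf1r. Well c of SNI 3d mouse 3 held Cd68 at 2220 and Csf1r at 1986 reads, with 251 of C1qa and none of C1qc. The shares of the C1q chains, so even in whole DRG, spread widely here. C1qb made up 96.3% of C1q reads in well b of naive mouse 6, 88.5% in well b of SNI 1d mouse 3 and 83.3% in well c of SCI 3d mouse 3, while C1qa made up 93.3% in well c of SNI 3d mouse 3.

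**Figure D4:**
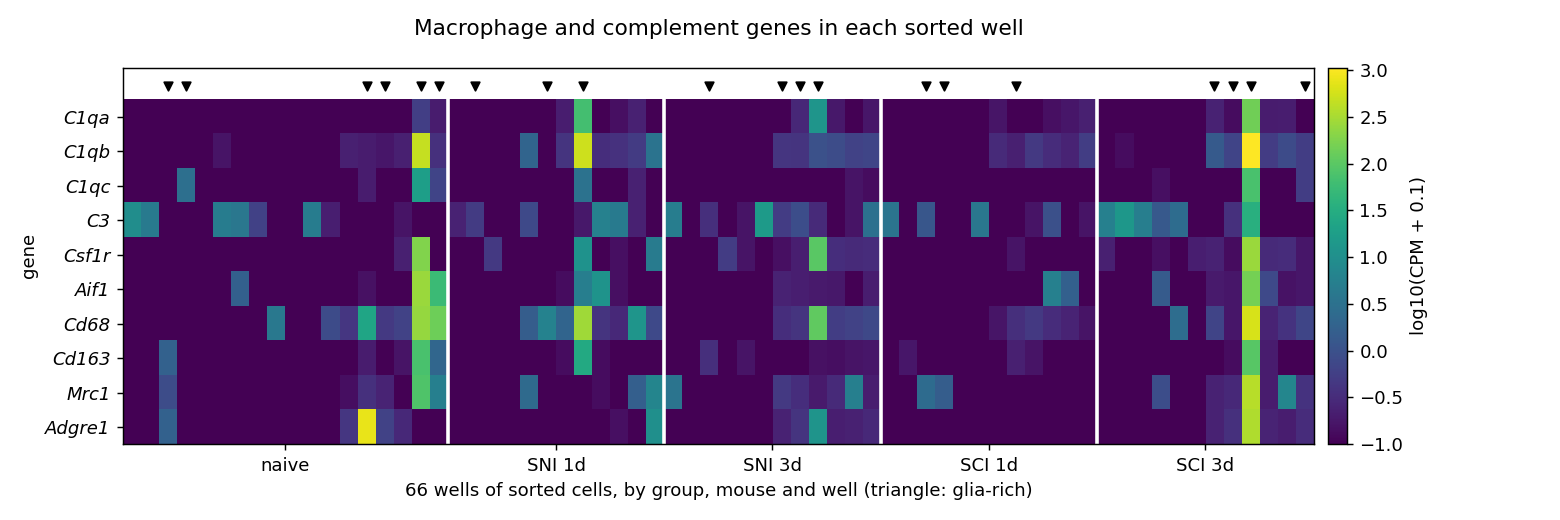
Level of each of the 10 genes (rows) in each of the 66 sorted wells (columns, ordered by group, mouse and well), coloured by log10(CPM + 0.1). Triangles mark the 20 glia-rich wells; 6 columns stand out, each with its own set of bright genes, and scattered lower signal lies elsewhere, in the most neuron-rich wells (28 of 46) for C3.

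The summed level of the 29 other macrophage genes stood apart in 4 of the 6 wells and not in the other two. It was 89363 CPM in well b of naive mouse 6, 49249 CPM in its well c, 48350 CPM in well c of SCI 3d mouse 3 and 41519 CPM in well b of SNI 1d mouse 3. The sums of 5097 CPM in well b of naive mouse 5 and 1690 CPM in well c of SNI 3d mouse 3 lay within the range of the 14 remaining glia-rich wells, 175 to 6034 CPM. Neuron-rich wells had a median of 898 CPM and a maximum of 4107 CPM, so that many wells with few member reads were also above the 346 to 483 CPM of uninjured whole DRG. Cd74, the invariant chain of MHC class II, reached 63904 CPM in well b of naive mouse 6, and Lyz2, a lysozyme gene, 11929 CPM in well c of SCI 3d mouse 3. All 10 lymphocyte genes were at 0 in 4 of the 6 wells and at a summed 0.0986 CPM or less in the other two. The 11 neutrophil genes summed to 0.418 CPM or less, and the 6 red blood cell genes to 0.536 CPM or less. The 6 monocyte genes went the other way except in well c of naive mouse 6, where they summed to 0.366 CPM. In the rest of these wells they summed to 210 to 589 CPM. Of the 6 genes, 1 or 2 were at 100 CPM or more and 2 to 4 were at 0, so each sum rested on few genes. All 6 together summed to 23.3 to 27.6 CPM in uninjured whole DRG and to at most 156 CPM in the 14 remaining glia-rich wells. Fibroblast and vessel genes summed to 29850 CPM in well c of SCI 3d mouse 3 and 13700 CPM in well b of naive mouse 5, mostly Dcn, the matrix protein decorin, and to as much as 58151 CPM in a glia-rich well outside the 6. The 8 neuronal genes summed to 117 to 550 CPM in the 6 wells, against a median of 32253 CPM in neuron-rich wells.

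In the 46 neuron-rich wells C3 had reads in the most wells, 28, with a median of 1 and a maximum of 354 reads, or 15.8 CPM. Cd68 had reads in 21 wells, with up to 95 reads or 12.5 CPM, and C1qb in 20 wells, with up to 34 reads. Aif1 reached 343 reads and 11.6 CPM and Mrc1 122 reads and 6.93 CPM, with reads in 11 and 12 wells. C1qa had at most 3 reads, C1qc at most 1 and Cd163 at most 2 in any neuron-rich well. C1qa was at 0 in 35 of the 46, where a count of 0 allows up to 0.0612 CPM in the deepest well and 2.01 CPM in the shallowest (3 reads, counting error only). Low counts of some members followed the set. C1qb had 2 to 19 reads in all 17 neuron-rich wells of the FACS2018 set and was at 0 in 26 of the 29 of the FACS set. Cd68 had 1 to 95 reads in all 17 and was at 0 in 25 of the 29. C3 went the other way, with reads in 9 of the 17 (median 1) and in 19 of the 29 (median 12).

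Naive sorted cells were compared with uninjured whole DRG, 6 mice against 4. Only C1qa passed of the 10 members, lower in sorted cells (adjusted p = 0.00766, edgeR), against 14.9% of 20546 genes called lower and 30.8% called in either direction. By estimate 6 of the 10 were higher in sorted cells and the others lower, with a median log2 fold change of 0.74 against 0.29 over all genes. The highest were Cd68 at 5.38 ± 2.61, Aif1 at 4.47 ± 2.88 and Adgre1 at 4.45 ± 3.02 (SE). C1qa was at 0 in 5 of 6 naive mice and at 0.168 CPM in the other, against 13.2 to 17.8 CPM in uninjured whole DRG. That other mouse had 8 reads of it, so C1qa met the filter of 20 reads only through whole DRG. A call could thus only be lower. Without the glia-rich wells 7 members passed, all lower in sorted cells, against 18% of genes called lower in that fit. They were C1qa, C1qb, C1qc, Csf1r, Cd163, Mrc1 and Adgre1, with adjusted p-values between 0.000281 and 0.0437 in edgeR. None of the 7 had more than 8 reads in a naive neuron-rich well. They too met the filter only through whole DRG, so their direction was fixed by it and gives no separate evidence of purity. Without naive mouse 6 alone 6 members passed, against 18.6% of genes called lower, and without naive mouse 5 alone C1qa and Adgre1 passed, against 20%. The same limit holds for all of these but C1qc, which had 29 reads in naive mouse 2. The 2 preparations also differed in library kit and dissociation, which cannot be told apart from the sort.

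Glia-rich wells were compared with the other wells of the same mouse in the 12 mice that had both. SCI 3d mouse 3 and SNI 3d mouse 3 had only glia-rich wells and could not enter this test. Left out with them was well c of each, at 49940 and 4725 member reads, a larger share than in any whole DRG library. The calls therefore do not cover these wells. Of the 10 members 3 were called higher in glia-rich wells, C1qc, Cd163 and Cd68, and 1 lower, C3, in edgeR, against 4.13% of 21267 genes called higher and 48.2% called lower (52.3% in all). C1qc and Cd163 had at most 1 and 2 reads in any neuron-rich well. They met the filter of 20 reads only through glia-rich wells, so their direction was set by the filter. Most of those reads were in well b of naive mouse 6 (234 and 960) and well b of SNI 1d mouse 3 (75 and 646). The median log2 fold change over all genes was -3.27 with TMM and 0.03 with DESeq2, and C3 at -3.68 ± 1.32 (SE) lay near the former. With DESeq2 its log2 fold change was -0.68 and its adjusted p 0.696, and 5 members passed, all higher (C1qb, C1qc, Cd68, Cd163 and Mrc1), against 11.8% of genes called higher with DESeq2. Without SNI 1d mouse 3, C3 no longer passed in edgeR.

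No member passed in any of the 4 comparisons of injured with naive sorted cells in edgeR with 2 RUVr factors. The share of 23507 genes called was 0.685% at SNI 1d, 0.706% at SNI 3d, 0.017% at SCI 1d and 0% at SCI 3d. Without adjustment, 3, 1, 3 and 1 members had a p under 0.05, and with DESeq2 3, 3, 0 and 0 members passed. At SNI 1d these were C1qa, C1qb and Csf1r, and at SNI 3d C1qa, Csf1r and Mrc1, where DESeq2 called 6.55% and 9.57% of all genes. All were called higher than naive. Yet Csf1r was at 49.9 CPM in naive mouse 6 and at 0 in the other 5. Its maximum was 3.36 CPM at SNI 1d and 34.1 CPM at SNI 3d. Mrc1 was at 24.7 CPM in naive mouse 6 and at most 1.65 CPM at SNI 3d. C1qb was at 130 CPM in naive mouse 6 and at most 158 CPM at SNI 1d. C1qa was at most 0.168 CPM in any naive mouse. C1qa at SNI 1d was at 19.5 CPM in mouse 3, the mouse whose well b is described above, and at most 1 CPM in the other 3 mice. At SNI 3d C1qa and Csf1r were at 4.35 and 34.1 CPM in mouse 3, that of well c. Without naive replicate 6, C1qa and Csf1r passed in edgeR at both SNI times, against 0.755% of genes at SNI 1d and 3.82% at SNI 3d. At SNI 1d C1qa also passed without SNI 1d mouse 2, SCI 1d mouse 4 or SNI 3d mouse 4, and C1qa, C1qb and Csf1r passed without SNI 3d mouse 3, against 2.52% of genes. C3 spread over more mice, with medians of 1.20 CPM in naive, 1.27 at SNI 1d, 1.79 at SNI 3d, 0.885 at SCI 1d and 4.48 at SCI 3d, and ranges that all overlapped. With a biological coefficient of variation of 1.20 in the sorted mice, against 0.133 in whole DRG, a lack of calls does not show that these genes were unchanged.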

How the data were processed

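The authors trimmed reads with Cutadapt and PRINSEQ, aligned them with STAR 2.5.3a to the mouse genome (GRCm38, mm10) and counted them per gene with HTSeq 0.6.1, per the submitters' processing notes and the study's methods. Whole DRG RNA was depleted of rRNA and made into libraries with a SMARTer kit, and sorted cells went into the SMARTer Ultra Low kit. The deposited counts are whole reads per gene without normalization, for 53379 genes in 74 libraries. The last 5 lines name no gene and were left out; reads on no feature were 3.72% to 26.2% of these and the gene reads together. The authors' tables also hold fold changes, p-values and 123 per-sample columns of normalized values, among them SNI and DLK knockout libraries that match none of the samples here, and these were not used.

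Genes were placed with GENCODE vM21. Tests were edgeR 4.0.16 quasi-likelihood F-tests (R 4.3.3, limma 3.58.1) after TMM normalization, with Benjamini-Hochberg adjustment over all genes tested and a threshold of 0.1. Whole DRG genes needed a mean count of at least 10. In sorted cells the 3 wells of a mouse were summed, genes needed at least 20 reads in 1 mouse, and 2 RUVr factors from centred residuals entered the model. The comparison with whole DRG and that of glia-rich wells had no factors. The latter summed wells per mouse and kind of well and had the mouse as a block. DESeq2 1.42.0 was an alternative. The scripts were tested on simulated data. Figures and levels used Python 3.11.15, numpy 2.4.6, pandas 2.3.3 and matplotlib 3.10.9. No 2 whole DRG libraries of a group agreed within sampling noise. The chi-square per degree of freedom was 29.3 to 35.1 between uninjured replicate 1 and the other uninjured libraries. Among those others it was 4.40 to 5.56. Between SCI replicate 3 and the other SCI libraries it was 30.7 to 41.9, against 4.34 to 9.75 among the latter.

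The members and gene lists were chosen with earlier results of these data known. The genes named are the 10 members, the 5 genes most like the members by each measure, and markers needed to say which cells a well held. In the complement, macrophage, monocyte and red blood cell lists, up to 4 genes per direction that passed in whole DRG are also named. In the list on signalling to and transcription in macrophages, where none passed, the 2 with the highest level are named. In the neutrophil, lymphocyte, glial and neuronal lists none passed and no single gene is named. Of the fibroblast and vessel genes, Lum was called lower in whole DRG (adjusted p = 0.0949, edgeR), and leaving out single libraries raised this to as much as 0.250. One called gene of the complement list is not reported here. In sorted wells other genes, such as Cd74, Lyz2 and Dcn, were named after their values were seen. Depth was 21959030 to 44493319 reads on genes per whole DRG library and 1494217 to 49015375 per well. Intervals and limits from counts cover counting error only. Replicates are separate mice, per the labels and the study's methods.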

Additional observations from a re-analysis of the deposited data

Results flagged for a closer look

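In groups of 4 to 6 mice, 36 of 70 combinations of gene and group had 1 mouse flagged as far from the rest by Dixon's limits. The limits give about 1 in 20 for normally distributed values, and that rate does not apply to groups mostly at 0. There a few reads suffice, such as 1 read of Csf1r in SCI 1d mouse 3 and 2 reads of C1qc in SNI 3d mouse 4. In whole DRG the flag fell on Csf1r in SCI replicate 3, at 14.4 CPM. All others were high values in summed sorted wells, in CPM. In SCI 3d mouse 3 they were C1qa 35.3, C1qb 266.6, C1qc 18.2, Csf1r 66.2, Aif1 38.0, Cd68 151.9, Cd163 24.1, Mrc1 96.9 and Adgre1 89.3. In naive mouse 6 they were C1qa 0.168, C1qb 130.1, C1qc 5.14, Csf1r 49.9, Aif1 93.7, Cd68 122.8, Cd163 21.0 and Mrc1 24.7. In SNI 1d mouse 3 they were C1qa 19.5, C1qb 158.0, C1qc 0.940, Csf1r 3.36, Aif1 5.83, Cd68 84.4 and Cd163 8.12. In SNI 3d mouse 3 they were C1qa 4.35, Csf1r 34.1, Cd68 38.2 and Adgre1 4.26. Adgre1 in naive mouse 5 was at 264.5. In other mice a value also stood apart from its group, namely C3 in naive mouse 1 at 5.63, Csf1r in SCI 1d mouse 3 at 0.0213, Aif1 in SCI 1d mouse 4 at 2.54, Adgre1 in SNI 1d mouse 4 at 0.524, and C1qc and Cd163 in SNI 3d mouse 4 at 0.0299 and 0.0599. The first 5 mice are those of the 6 wells with more member reads than whole DRG.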

How the results depend on the processing

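In whole DRG the members called numbered 2 under 5 alternatives (DESeq2's size factors, no count filter, a mean count of at least 50, a replicate block, a threshold of 0.05) and 3 with DESeq2. With the red blood cell level as covariate it was 0. It lay between 2 and 4 when each library was left out. Over the whole table, 408 genes were called, against 929 with DESeq2, 127 with the replicate block, 202 at a threshold of 0.05, 11 with the covariate and 103 to 634 with a library left out. Deviations of same-numbered libraries correlated at -0.16, 0.05, -0.03 and 0.26, inside the range of -0.31 to 0.31 between differently numbered ones. These values give no sign that the numbers pair the mice, but so few correlations cannot exclude it. Under the replicate block C3 and Cd163 kept log2 fold changes of 1.11 and 0.92. Changes of sign occurred only in genes with small or covariate-linked effects. With the covariate the log2 fold change was -0.12 for Csf1r, -0.062 for Aif1, -0.032 for Cd68, -0.19 for Hba-a1, -0.12 for Hba-a2 and -0.093 for Hbb-bt; the 3 globin genes make up part of the covariate. With single libraries left out, that of Csf1r lay between -0.058 and 0.19, and that of Aif1 between -0.12 and 0.16. Cx3cr1, Lgals3, Fcgr2b and Fcgr3 missed the threshold under 8 or more of 15 alternatives.

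In sorted cells, members called with DESeq2 were 3 at SNI 1d and 3 at SNI 3d. With mice left out they ranged from 0 to 3 at SNI 1d, from 0 to 2 at SNI 3d and stayed at 0 after SCI. At SNI 1d, members passed without SNI 1d mouse 2, naive mouse 6, SCI 1d mouse 4 and SNI 3d mice 3 or 4. The replicate block, with the set and label number, called 0 members in each of the 4 comparisons. Without glia-rich wells only 5 members could be tested in these 4 comparisons, and none passed. Genes called over the whole table ranged from 0 to 1772 at SNI 1d, 0 to 2250 at SNI 3d, 1 to 1222 at SCI 1d and 0 to 1202 at SCI 3d over the alternatives other than leaving out mice. For naive sorted cells against whole DRG, members called were 7 without glia-rich wells and 1 to 6 with mice left out; for glia-rich wells they were 3 to 5 with mice left out. TMM-normalized levels in whole DRG moved by less than 1 SD for every member. The cause of these differences was not tested. The spread between mice limits the sorted comparisons.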
